A study of Mus musculus with 5 samples.

Results

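The mRNA levels of 53 genes that copy DNA or supply its building blocks were described in HT22 cells, a mouse hippocampal cell line, after siRNA against the long non-coding RNA Gas5. The genes were taken from a list of replication proteins, and all 53 were found by symbol among the 55487 genes of the count table. They fell into 12 subcomplexes: the origin recognition complex with 6 genes, licensing factors with 3, the MCM2-7 helicase with 6, other MCM proteins with 2, Cdc45 and GINS with 5, polymerase alpha and primase with 4, polymerases delta and epsilon with 5, the clamp and its loader with 6, replication protein A with 3, Okazaki fragment processing with 3, chromatin assembly and methylation copying with 4, and nucleotide supply with 6. All cells were transfected for 48 hours at 10 nM. The KD arm held 1 library of GAS-siRNA210 and 2 of GAS-siRNA596, and the control arm held 2 libraries of NC siRNA. The treatment label of the NC libraries reads untreated, whereas their titles and the protocol name NC siRNA. HT22 is a single immortalised line, the knock-down was transient, and the labels do not say whether replicates came from separate cultures. The p-values therefore measured the spread between libraries, which may be technical.

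Libraries held 30660265 to 36492134 counted reads over genes. Gas5 was the check of the labels. Its level as TMM-normalised CPM, read counts scaled to a common library size, was 90.5 and 76.1 in the NC libraries, 59.8 with siRNA210 and 66.0 in siRNA596 replicate 1, but 177 in the library labelled siRNA596 replicate 2. That library thus stood above both controls for the targeted gene, against its label. Where its own values are given, they are given separately. Its log2 ratio of Gas5 to the NC mean was 1.09. Many genes moved as far there: 16.7% of all genes were more than 2-fold above the NC mean and 23.6% more than 2-fold below. The reason was not tested. In the other 4 libraries the log2 fold change of Gas5, KD against NC, was -0.41 ± 0.11 (SE), with an unadjusted p of 0.0038 and an adjusted p of 0.967 in edgeR's quasi-likelihood test. With all 5 libraries the value was 0.29. Among marker genes, the defining neuronal genes Snap25, Nefl, Nefm and Gria2 had no count in any library, and Rbfox3 had 2 counts in total, both in the library labelled siRNA596 replicate 2. Only 4 of 12 neuronal markers reached 1 CPM, among them Map2 and Tubb3, and the neuronal list summed to 98.8 to 106 CPM in the 4 libraries. The list of progenitor or proliferating-precursor markers, of which 4 of 5 were detected and Sox2 was at 0, summed to 4029 and 3627 CPM in NC and to 4317 and 4056 CPM in KD, mostly from Vim. The part of these shifts in the results was not tested. Mki67, a proliferation marker, was at 578 to 621 CPM in the 4 libraries and at 278 CPM in the library labelled siRNA596 replicate 2. Log2 ratios to the NC mean in that library tended to fall with transcript length, as given below, and the Mki67 value was not corrected for that trend. The fibroblast list summed to 4670 and 5058 CPM in NC and to 5261 and 4824 CPM in KD, the astrocyte list to 25.1 to 50.5 CPM with 1 of 4 genes at 1 CPM or more, and the oligodendrocyte, microglial and endothelial lists to at most 3.25 CPM in any library.

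As background, replication starts where the origin recognition complex marks DNA and, with Cdc6 and Cdt1, loads the ring-shaped MCM2-7 helicase in G1. In S phase Cdc45 and GINS turn the loaded ring into an active helicase, polymerase alpha with primase lays down primers, polymerase epsilon and polymerase delta extend the strands, and the Pcna clamp, loaded by the Rfc complex, holds the polymerases on DNA. Many of these genes are transcribed in late G1 and S phase under E2F transcription factors, so their mRNAs are abundant in dividing cells and scarce in resting ones. The RNA-Seq was made to look for genes under the control of Gas5, and the comparison here asks how these replication genes behaved. In whole-culture RNA, fewer cells in S phase and less mRNA per cell cannot be told apart.

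All 53 genes passed the filter on low counts. Levels are given as CPM per kb of the principal annotated transcript, a scale that compares genes only as far as their counts and lengths hold. The median over the 53 genes was 40.7 CPM per kb in the NC mean, against 7.16 for all 15853 tested genes with a length. Pcna was the highest and Fen1 the lowest, an 82.5-fold range that shrank to 28.0-fold without Fen1. Fen1 shares most of its exon bases with neighbouring genes, so its low level is uncertain. In all, 10 members shared over 10% of their exon bases with another gene. When all annotated exons were used as the length instead, the order of the members kept a Spearman rho of 0.919, and single genes moved by up to 18 places. The counts behind these levels ran from 79 to 17000 per gene and library, and 51 of the 53 genes had at least 500 in every library, the exceptions being Fen1 and Pole2.

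**Figure D1:**
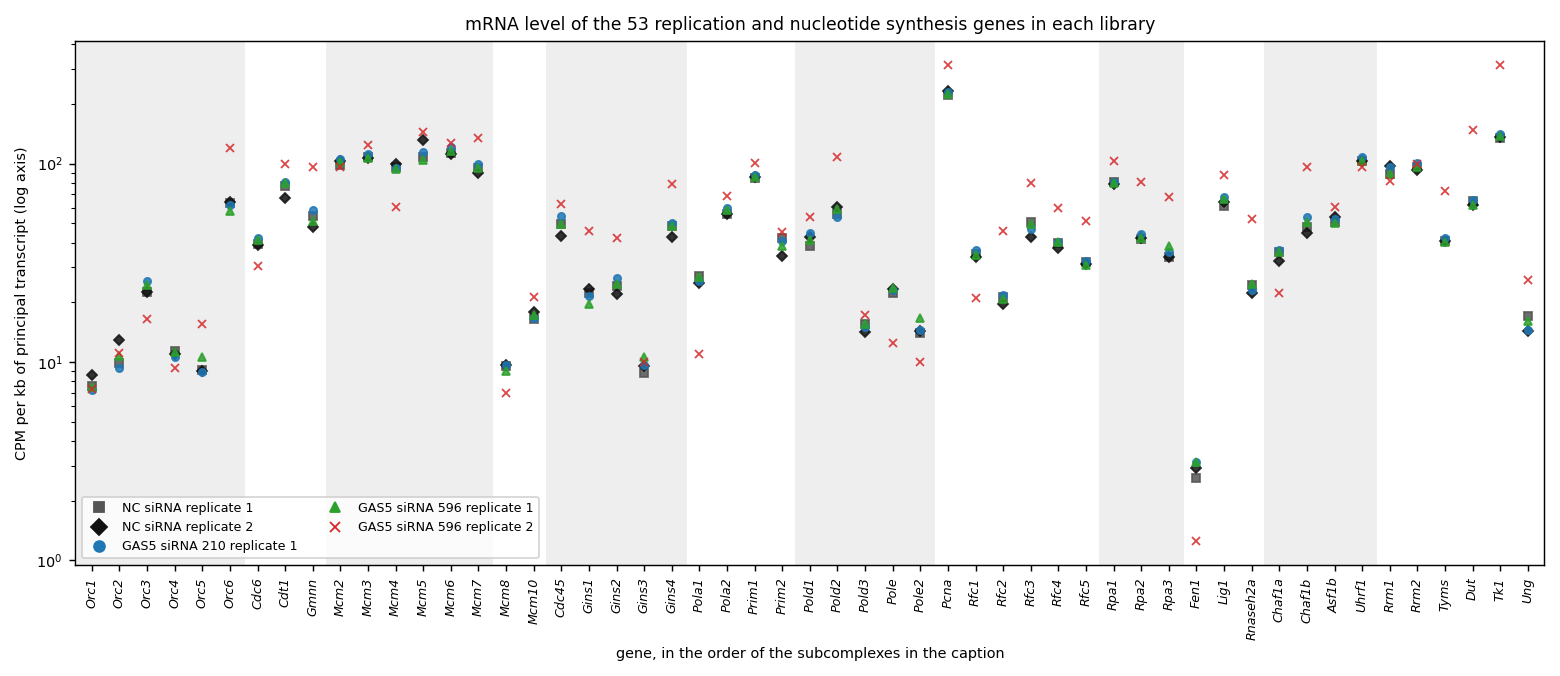
mRNA level of each of the 53 genes in CPM per kb of principal transcript, on a log axis, with 1 symbol per library. Alternating shading marks, from left to right, the origin recognition complex, licensing factors, MCM2-7, other MCM proteins, Cdc45 and GINS, polymerase alpha and primase, polymerases delta and epsilon, clamp and loader, replication protein A, Okazaki fragment processing, chromatin assembly and methylation copying, and nucleotide supply. The 4 libraries other than the red crosses lie close together for each gene, while the genes span a range from 2.75 (Fen1) to 227 (Pcna) in the NC mean. The Fen1 level is uncertain, as most of its exon bases are shared with neighbouring genes.

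The 6 subunits of the helicase ring, which assemble in equal numbers, lay close together in mRNA level on the scale of the principal transcript. In NC replicate 1 they lay between 95.2 and 114 CPM per kb, in NC replicate 2 between 89.8 and 131, with siRNA210 between 95.5 and 122, and in siRNA596 replicate 1 between 94.5 and 116. The highest subunit exceeded the lowest by 1.19-fold to 1.46-fold in these 4 libraries. Per kb of all annotated exons the range was wider, 1.88-fold to 2.23-fold, with Mcm2 at 48.8 and Mcm5 at 101.1 in the NC mean, so the closeness depended on the length used. On the principal transcript scale the order in the NC mean was Mcm5 at 119 ± 16.7 (SD, n = 2), Mcm6 at 113 ± 1.20, Mcm3 at 107 ± 0.73, Mcm2 at 100.7 ± 3.26, Mcm4 at 97.7 ± 2.83 and Mcm7 at 92.5 ± 3.84. Mcm5, Mcm6 and Mcm3 did not differ beyond the spread of Mcm5. In the library labelled siRNA596 replicate 2 the ring spread out, from 60.4 CPM per kb for Mcm4 to 144 for Mcm5, a 2.39-fold range. Both remaining MCM relatives were far lower: Mcm8, which acts in recombination, stood at 9.57 CPM per kb in the NC mean, and Mcm10, a firing factor, at 17.2.

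The promoters of the helicase genes are shown because they carry the letters through which E2F factors are known to bind this gene class. RefSeq promoters (build GRCm38.p6, 250 bases before to 50 after each start) were matched by symbol for 45 of the 53 genes, as 54 promoters. The E2F words searched, on both strands, were the word TTCCCGC, the word TTCGCGC and the word TTGGCGC, and 30 of the 54 promoters (55.6%) held at least 1, as did 10.6% of 20150 promoters of protein-coding genes. The word CCAAT was in 57.4% of the members' promoters and 37.8% of all, the GC box GGGCGG in 75.9% and 47.8%, and the CHR word TTTGAA, found in many late cell cycle promoters, in 11.1% and 15.2%. The last of the E2F words can share letters with the CCAAT box, and the first with the GC box, so these counts were not independent. The E2F words were uneven over the subcomplexes, from 1 of 6 nucleotide supply genes to 2 of 2 licensing factors with a promoter entry. Of the 5 helicase genes with a promoter entry, 4 held an E2F word and Mcm2 held 0. The words of Mcm3 did not lie upstream of the start. For Mcm5, Mcm6 and Mcm7, 60 upstream bases with such words are printed 5′ to 3′ on the gene's strand with the words in capitals. The Mcm5 window is at chr8:75109322-75109381 on the plus strand and begins 187 bases before the start. The Mcm6 window is at chr1:128359778-128359837 on the minus strand and begins 132 bases before it. The Mcm7 window, at chr5:138172012-138172071 on the minus strand, begins 188 bases before it.
Mcm5: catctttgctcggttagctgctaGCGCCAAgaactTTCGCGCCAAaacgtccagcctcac
Mcm6: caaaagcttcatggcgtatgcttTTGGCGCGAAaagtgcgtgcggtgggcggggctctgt
Mcm7: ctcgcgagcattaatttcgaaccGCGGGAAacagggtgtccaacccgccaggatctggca
These windows hold 3, 2 and 1 words. The whole promoters held up to 5 words for Mcm6 and up to 3 for Mcm3, Mcm5 and Mcm7. All 3 words of Mcm5 are in its window, and a further Mcm7 promoter held words that are not printed. A word is a description of these windows and not a measured binding site.

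Under Gas5 siRNA the helicase genes stayed close to the controls. Mcm6 was at 114 and 112 CPM per kb in NC, at 122 with siRNA210 and at 116 in siRNA596 replicate 1, so both KD libraries lay above both NC libraries. Its log2 fold change was 0.07 ± 0.08 (SE), with an adjusted p of 0.967 or more, as for every one of the 53 genes. Mcm7 showed the same arrangement, with 95.2 and 89.8 in NC against 99.3 and 95.5 in KD. Its exons overlap Ap4m1, Cops6, Mir25 and Mir93 over 12.6% of their bases, and 26.0% of its 50-base words are also in transcripts of another gene, so its counts are uncertain. Mcm4 was the reverse, at 95.7 and 99.7 in NC against 95.5 and 94.5 in KD, a log2 fold change of -0.04 ± 0.08. Mcm5 had the largest absolute value of the ring, -0.13 ± 0.11, from 108 and 131 CPM per kb in NC against 114 and 104 in KD. NC replicate 2 alone was high for Mcm5, and without that library the log2 fold change was 0.02. Mcm2 and Mcm3 had 0.04 and 0.03.

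The origin recognition complex, whose Orc1 to Orc5 subunits form an ATP-dependent ring around DNA, was less even. Orc6, a more loosely bound subunit, stood at 63.7 CPM per kb in the NC mean, Orc3 at 22.5, and Orc2, Orc4, Orc5 and Orc1 at 11.4, 11.2, 9.01 and 8.09. Orc2 and Orc4 did not differ beyond the SD of Orc2 of 2.22, whereas Orc5 lay above Orc1 by more than the SD of Orc1 of 0.742. Per kb of all annotated exons the order below Orc6 changed, and Orc5 was the lowest at 3.07. The highest exceeded the lowest by 7.46-fold to 8.60-fold in the 4 libraries. Of the 6 genes, 2 had a positive log2 fold change and the median was -0.07. Orc2 had the lowest log2 fold change of all 53 genes, -0.19 ± 0.14. Its levels were 9.83 and 13.0 in NC, 9.34 with siRNA210 and 10.7 in siRNA596 replicate 1. The groups overlapped, the gap between the NC libraries was the widest of any member (0.40 on the log2 scale), and without NC replicate 2 the log2 fold change was 0.03. Nif3l1 overlaps 29.8% of the exon bases of Orc2. Orc1 was lower in both KD libraries, 7.20 and 7.47 against 7.57 and 8.62 CPM per kb (log2 fold change -0.15 ± 0.12, and -0.05 without NC replicate 2 or -0.24 without NC replicate 1). Orc6 was at 61.9 and 57.7 in KD against 63.2 and 64.3 in NC (-0.09 ± 0.08, -0.05 without siRNA596 replicate 1 and -0.15 without siRNA210), and at 120 in the library labelled siRNA596 replicate 2. Orc3 went the other way, with 25.5 and 24.5 in KD against 22.5 in both NC libraries (0.15 ± 0.09), but with 16.6 in the library labelled siRNA596 replicate 2.

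The licensing factors all had positive log2 fold changes in the 4 libraries. With all 5 libraries 2 of the 3 were positive, and Cdc6 was at -0.04. Cdt1, which brings MCM2-7 to the origin, was at 76.8 and 67.1 CPM per kb in NC and at 80.5 and 80.1 in KD, a log2 fold change of 0.16 ± 0.09 with an unadjusted p of 0.112. Without NC replicate 2 the value was 0.06, and without NC replicate 1 it was 0.26. Cdc6, the ATPase that loads the helicase with Cdt1, was at 39.4 and 38.9 in NC and at 42.1 and 41.3 in KD (0.09 ± 0.08). For both genes the KD libraries lay above the NC libraries by less than a fold of 1.5. Geminin (Gmnn), the inhibitor of Cdt1, was at 54.2 and 47.8 in NC and at 58.3 and 51.5 in KD, so the groups overlapped (0.10 ± 0.10).

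Cdc45 and the 4 GINS subunits, the partners that switch on the helicase, differed in level by 4.50-fold to 5.65-fold although they join 1 complex. Cdc45 was at 49.62 and 43.0 CPM per kb in NC and at 54.6 and 49.64 in KD, a log2 fold change of 0.17 ± 0.10 (unadjusted p of 0.115). It was 0.07 without NC replicate 2, 0.27 without NC replicate 1 and 0.10 without siRNA210. The groups were separated by the narrow gap between 49.62 and 49.64. Gins2 was at 24.0 and 21.9 in NC and at 26.4 and 24.6 in KD (0.15 ± 0.09), but 67.3% of its exon bases also belong to Gse1. Gins3 (0.14 ± 0.12) was higher in both KD libraries, and Gins4 (0.10 ± 0.09) overlapped between groups. Gins1 stood apart from its partners, with 22.3 and 23.4 in NC, 21.6 with siRNA210 and 19.5 in siRNA596 replicate 1 (-0.16 ± 0.12, and -0.09 without the latter library). It was at 45.8 in the library labelled siRNA596 replicate 2, and with all 5 libraries its value was 0.35 ± 0.43.

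Of the 9 polymerase genes, 2 had both KD libraries above both NC libraries. Among the primer-making genes, Pola2, the regulatory subunit of polymerase alpha, was at 56.1 and 55.6 CPM per kb in NC and at 59.8 and 58.4 in KD (0.08 ± 0.08). The catalytic Pola1 had a log2 fold change of 0.004, and the primase subunits Prim1 and Prim2 had 0.01 and 0.05. Prim1 was the most abundant of the 4 at 85.5 CPM per kb in the NC mean and Pola1 the least at 26.1. Per kb of all exons Prim2 was the least, at 12.7. For polymerase delta, the catalytic Pold1 was at 38.4 and 42.9 in NC and at 44.7 and 41.2 in KD (0.08 ± 0.09), Pold2 had -0.05 and Pold3 had 0.04. The catalytic subunit of polymerase epsilon, Pole, had 0.02 and its partner Pole2 had 0.13 ± 0.12. Pole2 was at 14.0 and 14.3 in NC, 14.4 with siRNA210 and 16.6 in siRNA596 replicate 1, so most of its difference came from the latter library.

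The sliding clamp Pcna was the most abundant member and had the log2 fold change nearest to 0. It was at 221 and 233 CPM per kb in NC, at 230 with siRNA210 and at 225 in siRNA596 replicate 1, with overlapping groups. The log2 fold change was 0.001 ± 0.08, with a 95% interval from -0.18 to 0.18. Its sign turned under several alternatives. Copies of the gene complicate its counts, as 31.8% of its 50-base words are in the transcript of the pseudogene Pcna-ps2. The 5 subunits of the Rfc loader lay between 20.5 (Rfc2) and 46.6 (Rfc3) CPM per kb in the NC mean, and their log2 fold changes between -0.005 (Rfc5) and 0.05 (Rfc3). Rfc4 was the only loader subunit with both KD libraries above both NC libraries, 40.1 and 40.4 against 39.6 and 37.8.

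Replication protein A coats the exposed single strands as a trimer. Its large subunit Rpa1 was at 79.9 CPM per kb in the NC mean, Rpa2 at 41.9 and Rpa3 at 33.9. Rpa3 was at 33.9 and 34.0 in NC, 35.7 with siRNA210 and 38.6 in siRNA596 replicate 1 (0.13 ± 0.12), while Rpa1 had 0.004 and Rpa2 had 0.04. Of the enzymes that finish lagging-strand fragments, DNA ligase I (Lig1) was at 61.4 and 64.2 in NC and at 68.3 and 66.0 in KD (0.09 ± 0.08). Rnaseh2a, the catalytic subunit of an RNase that removes RNA from DNA, had 0.03 ± 0.09. Fen1, the nuclease that trims flaps, had the highest log2 fold change of the 53 genes, 0.18 ± 0.18, and also the largest SE. Its counts were 216 and 264 in NC and 266 and 264 in KD, and 84.2% of its exon bases (chr19:10199132-10204169, minus strand) are shared with Gm10143 and Tmem258, so its counts are uncertain. Without NC replicate 1 its value was 0.10, and without NC replicate 2 it was 0.27. In the fit of 4 libraries Fen1 was the only member whose 95% interval, -0.23 to 0.60, went beyond a fold of 1.5.

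Chromatin assembly factor 1 deposits histones behind the fork and is brought there by Pcna. Its Chaf1b subunit was at 48.1 and 44.9 CPM per kb in NC and at 54.0 and 51.0 in KD, with a log2 fold change of 0.17 ± 0.08 and the lowest unadjusted p of any member, 0.0699. When each library was left out in turn, the log2 fold change of Chaf1b ranged from 0.12 to 0.22. Chaf1a was at 35.8 and 32.2 in NC and at 36.9 and 36.0 in KD (0.10 ± 0.08), a value that was 0.02 without NC replicate 2 and 0.18 without NC replicate 1. The KD libraries lay above the NC libraries for both subunits, but Chaf1a shares 52.5% of its exon bases with Ubxn6. The histone chaperone Asf1b had -0.03 ± 0.08, and Uhrf1, which guides the methylation of new DNA, had 0.02 ± 0.08, with 18.9% of its words in transcripts of other genes.

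The genes of nucleotide supply had a median log2 fold change of 0.01. Thymidine kinase 1 (Tk1), which salvages thymidine, was the next most abundant member after Pcna on the principal transcript scale, and had rank 18 per kb of all exons. It was at 136 and 137 CPM per kb in NC and at 142 and 137 in KD (0.03 ± 0.08), the KD libraries lying just above the NC libraries. The ribonucleotide reductase subunits Rrm1 and Rrm2, which make deoxynucleotides, had levels of 92.9 and 94.8 in the NC mean, or 33.7 and 75.05 per kb of all exons, and values of -0.02 and 0.05. Thymidylate synthase (Tyms) had 0.01, the dUTPase Dut had 0.008, and Ung, which removes uracil from DNA, had -0.04 ± 0.12 from the lowest level of the group, 15.7.

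**Figure D2:**
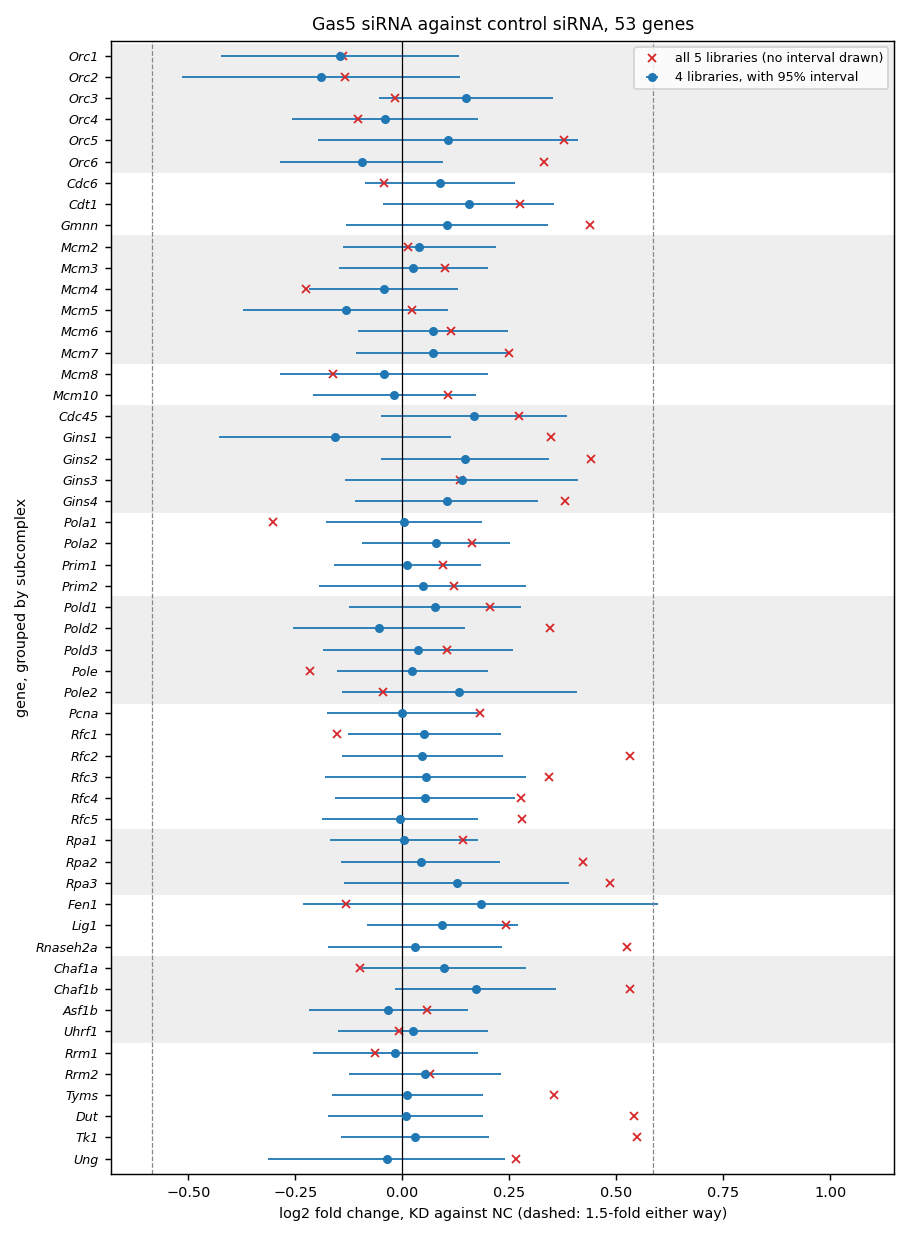
Log2 fold change of each gene, KD against NC. Blue points with 95% intervals are from 4 libraries, red crosses are the values with all 5 libraries, and dashed lines mark a fold of 1.5 either way. Every blue interval includes 0, and that of Fen1, reaching 0.60, is the only one to pass a dashed line.

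Across the 4 libraries, edgeR called 0 of the 53 genes at an adjusted p under 0.05, as it called 0 of all 15867 genes tested (0%). At an unadjusted p under 0.05 it had 0 members higher in KD, against 277 of all genes (1.75%), and 0 lower, against 246 (1.55%). DESeq2 called 1 gene of the whole table and 0 members, and had 368 genes and 0 members at an unadjusted p under 0.05. Without NC replicate 1 edgeR had 7 members and 2776 of 16873 genes at an unadjusted p under 0.05, and 0 of both after adjustment. The estimates were narrow. The median SE of the log2 fold change was 0.0846 over members and 0.142 over all genes, and the 95% intervals of 52 of the 53 genes lay within a fold of 1.5 either way. The log2 fold change was positive for 39 members (73.6%), against 49.5% of all genes, with medians of 0.0402 and -0.0023. The members' median minus that of all genes was 0.0425. Between libraries of the same arm, the members' median log2 level relative to that of all genes had an SD of 0.0564. The shift thus lay within the spread between replicates. With scaling by library size only, 33 members were positive. For 31 of the 53 genes (58.5%, against 67.9% of all genes) the log2 ratio between the NC libraries was larger in size than the log2 fold change. Members had a higher median level than all tested genes, 40.7 against 7.16 CPM per kb in the NC mean. No comparison with all genes, here or below, was matched for level.

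The KD libraries did not overlap the NC libraries for 22 members. Both KD libraries lay above both NC libraries for 18 members (34.0%), against 16.8% of all genes, and below for 4 (7.55%), against 16.1%. The 18 were spread over 11 subcomplexes: Orc3, Cdc6, Cdt1, Mcm6, Mcm7, Cdc45, Gins2, Gins3, Pola2, Pole2, Rfc4, Rpa2, Rpa3, Fen1, Lig1, Chaf1a, Chaf1b and Tk1. The 4 were Orc1, Orc6, Mcm4 and Gins1. These counts rest on CPM scaled by TMM over 5 libraries and were not repeated under another scaling. Some gaps were narrow, so membership may depend on the scaling. With siRNA210, 40 of the 53 genes stood above the NC mean, with a median log2 ratio of 0.054, and 49.8% of all genes did. In siRNA596 replicate 1 it was 36 genes with a median of 0.018, and 49.9% of all genes. Members share the same 4 libraries and NC mean, so these counts are not independent observations.

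**Figure D3:**
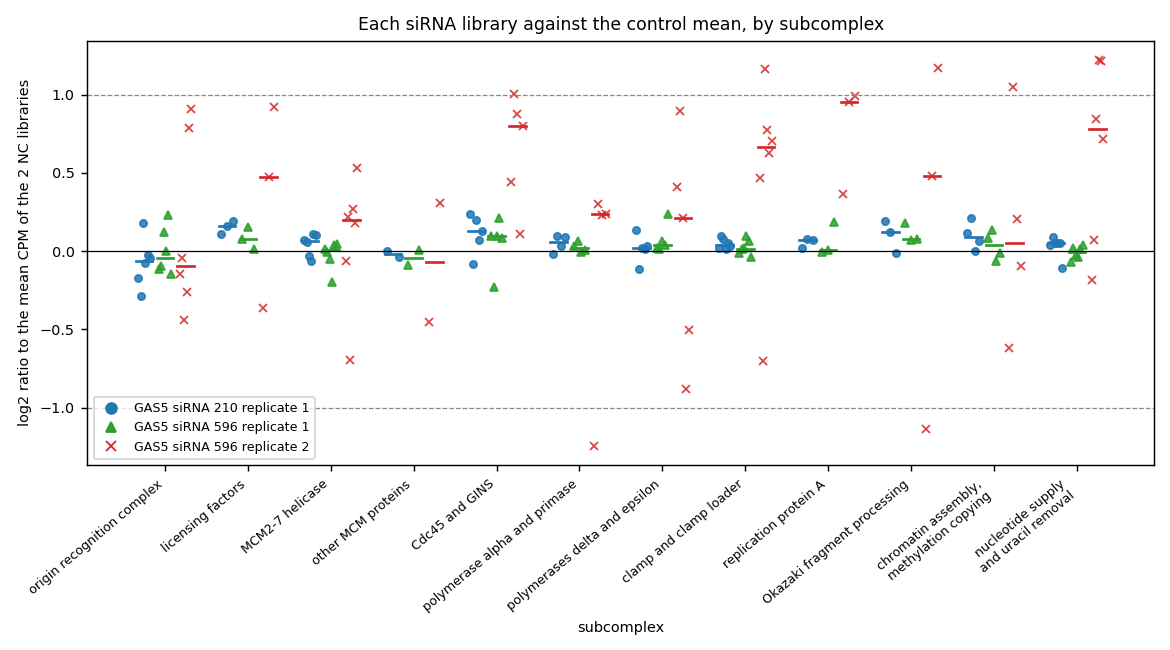
Log2 ratio of each siRNA library to the mean CPM of the NC libraries, by subcomplex, with 1 point per gene and a short line at the median. Blue circles are siRNA210, green triangles siRNA596 replicate 1 and red crosses the library labelled siRNA596 replicate 2, and dashed lines mark a fold of 2. The circles and triangles stay between -0.29 and 0.24, whereas the crosses reach from -1.24 to 1.22.

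With all 5 libraries, 0 of the 53 genes were called at an adjusted p under 0.05, as were 0 of 16142 genes (0%). At an unadjusted p under 0.05 edgeR had 0 members and 60 genes of all (0.372%). The log2 fold change was positive for 38 members, against 51% of all genes, with medians of 0.14 and 0.0112. However, the median SE over members was 0.258, and 5 of the 53 intervals lay within a fold of 1.5. Of the 18 members above the controls in both KD libraries, 13 stood above the NC mean in the library labelled siRNA596 replicate 2. Of all 53 members 37 did, against 47.1% of all genes.

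The siRNA210 and siRNA596 groups were also compared with each other. In the fit of all 5 libraries, 0 of the 53 genes and 0 of 17551 genes (0%) differed between them at an adjusted p under 0.05 in edgeR. At an unadjusted p under 0.05 it had 0 members and 52 genes of all. The intervals were wide, reaching from -2.12 to 2.08, and none lay within a fold of 1.5 either way. Without the library labelled siRNA596 replicate 2 there was 1 library per siRNA, with a spread taken from the NC libraries, and edgeR called 1 gene of the whole table and 0 members. In that fit 37 of the 53 genes were higher with siRNA210, against 50.8% of all genes. The median difference was 0.0481 over members and 0.0015 over all genes, and 45 of the members' intervals lay within a fold of 1.5. Geminin had the highest difference, siRNA210 over siRNA596, at 0.18 on the log2 scale, and Orc5 the lowest, at -0.26.

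A list of 68 other genes of replication and nucleotide synthesis was described in the same fit of 4 libraries. All 68 were tested. Of these, 0 passed an adjusted p under 0.05, 0 were higher at an unadjusted p under 0.05 and 2 were lower. The log2 fold change was positive for 26 of the 68, with a median of -0.03. Both KD libraries lay above the NC libraries for 3 of the 68, against 2665 of all 15867 genes (16.8%). Both lay below for 10 of the 68, against 2551 of all 15867 genes (16.1%). By group, 10 of 20 firing and fork factors, 3 of 11 further polymerase subunits and nucleases, 4 of 7 chromatin and methylation genes and 9 of 30 genes of nucleotide synthesis were positive. The 3 lowest were Mthfd1, a folate enzyme that feeds purine and thymidylate synthesis (-0.27 ± 0.14), Supt16, a subunit of the histone chaperone FACT (-0.24 ± 0.10), and Dscc1, part of an alternative clamp loader (-0.24 ± 0.14). Mthfd1 had counts of 3645 and 5545 in NC against 3608 and 3753 in KD, so that NC replicate 2 alone stood apart. Supt16 had 4014 and 5135 in NC against 3639 and 3863 in KD, with an unadjusted p of 0.0318. Cmpk1, a pyrimidine nucleotide kinase named here after its values were seen, was the other gene lower at an unadjusted p under 0.05 (-0.23 ± 0.10, unadjusted p of 0.0486). The 3 highest were Pold4, a small subunit of polymerase delta (0.17 ± 0.19), the nucleoside diphosphate kinase Nme2 (0.12 ± 0.58, from 15 to 19 counts per library in the 4 libraries) and Mcm9, the partner of Mcm8 (0.11 ± 0.13).

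In the library labelled siRNA596 replicate 2 the members lay far further from the controls, and their log2 ratios tended to fall with transcript length. Its log2 ratio to the NC mean was above 1 for 6 members (11.3%), against 16.7% of all genes, and below -1 for 2 (3.77%), against 23.6%. None of the 53 passed a fold of 2 in the siRNA210 library or in siRNA596 replicate 1, or between the NC libraries. The 6 were Dut, Tk1, Rnaseh2a, Rfc2, Chaf1b and Gins1, and the 2 were Pola1 and Fen1. Tk1, with a principal transcript of 1440 bases, was at 316 CPM per kb there, and Dut, with 1950 bases, at 148 against 64.8 and 62.1 in NC. Pola1, with 5346 bases, was at 11.0 against 27.0 and 25.1. Over the 53 genes the Spearman rho of transcript length with the log2 ratio was -0.53, and over 15536 genes, which share the library, it was -0.51. With siRNA210 it was -0.07 over members and in siRNA596 replicate 1 it was -0.17.

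When the members were ordered by length, the 18 shortest, of 670 to 2103 bases, had a median log2 ratio of 0.85 in that library, and 17 of them stood above the NC mean. The 17 of intermediate length had a median of 0.22. The 18 longest, of 3174 to 7163 bases, had -0.08, and 7 of them stood above the NC mean. After the trend with length over all genes was taken off, the medians of the 3 groups were 0.10, 0.22 and 0.20, and 37 of the 53 genes were above 0, with a median of 0.17 against 0.03 over all genes. The summed level of the members was 7343 and 7370 CPM in NC, 7636 with siRNA210, 7389 in siRNA596 replicate 1 and 9130 in that library. Mki67 was at 278 CPM there. Neither the sums nor the Mki67 level had the length trend taken off, so they cannot be set against each other. Rfc2, with a long annotated transcript of 4995 bases, was at 46.0 CPM per kb against 21.4 and 19.6 in NC, and was the member furthest above the length trend, by 1.82. Fen1 was the furthest below it, by a log2 ratio of -1.30. Rfc2 shares 15.1% of its exon bases with Lat2 and Fen1 most of its bases with its neighbours. Which transcripts the cells expressed was not tested, so distances from the trend rest on the annotated lengths.

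**Figure D4:**
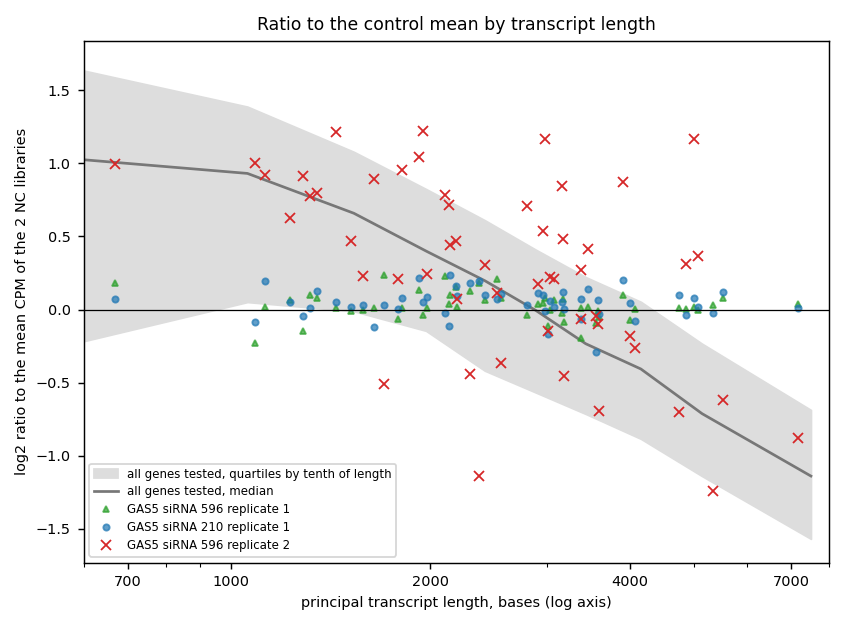
Log2 ratio to the NC mean against principal transcript length in bases, on a log axis, for the 53 genes. Red crosses are the library labelled siRNA596 replicate 2, blue circles siRNA210 and green triangles siRNA596 replicate 1, and the grey line and band are the median and quartiles of all tested genes in that replicate 2 library, in 10 bins of length. The crosses slope down with length as the grey line does, and the other symbols stay near 0.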

How the data were processed

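RNA-Seq was made from poly(A) mRNA of 5 HT22 libraries. Per the methods and labels, the authors trimmed reads, mapped them to GRCm38 with HISAT2 2.1.0, sorted them with SAMtools 1.7 and counted them with featureCounts 2.0.1; a strand setting is not given in the sources used here. The deposited values are whole-number counts per gene, taken as they were. A deposited table of the authors' own comparison holds a mean signal from DESeq2 1.26.0, fold changes and p-values; only the mean signal was read, to see which libraries it averages. It matched the mean normalised counts of 4 libraries within 0.0977% and not those of all 5, so the 4 libraries gave the main comparison, KD (siRNA210 and siRNA596 replicate 1) against NC. Symbols, exons and principal transcripts came from GENCODE M21 and named 99.5% of 55487 genes.

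Genes were filtered with filterByExpr, scaled by TMM and tested with the quasi-likelihood test of edgeR 4.0.16 in R, with Benjamini-Hochberg adjustment over all genes tested. DESeq2 1.42.0 was an alternative. SE and 95% intervals came from the same fit. CPM used TMM over 5 libraries. The other replication genes numbered 68; for Chtf8, which has 2 identifiers, the one with counts was used. The members and lists were chosen with earlier results of these data known. The genes followed through every alternative were Gas5, the 5 members with the highest and the 5 with the lowest log2 fold change, Pcna, Chaf1a and Chaf1b, and of the other replication genes the 3 highest and 3 lowest are named. Alternatives changed the libraries, the scaling, the filter, the tool and a correction for transcript length. Intervals and counts cover counting error and the spread between these libraries only.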

Additional observations from a re-analysis of the deposited data

Results flagged for a closer look

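The library labelled siRNA596 replicate 2 was not part of the 4-library comparison, and 8 members differed in it from the NC mean by more than a fold of 2, which none did in the other siRNA libraries. On the log2 scale, Dut was at 1.22, Tk1 at 1.21, Rnaseh2a at 1.17, Rfc2 at 1.17, Chaf1b at 1.05 and Gins1 at 1.00 above the NC mean, and Fen1 at -1.14 and Pola1 at -1.24. Of the 6 higher members, Gins1, Tk1, Chaf1b and Dut have principal transcripts of 1087, 1440, 1922 and 1950 bases, and Rnaseh2a and Rfc2 of 2981 and 4995 bases. After the trend with length was taken off, Dut stood at 0.85, Tk1 at 0.56, Rnaseh2a at 1.2617, Rfc2 at 1.82, Chaf1b at 0.66, Gins1 at 0.15, Fen1 at -1.30 and Pola1 at -0.51. These are values of a single library whose Gas5 level went against its label. Those after the trend also rest on annotated lengths, and the transcripts expressed were not tested.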

How the results depend on the processing

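The count of members called was 0 under every alternative run, and 33 to 41 of the 53 members had a positive log2 fold change. Over all genes, 0 were called in the main comparison, 1 with DESeq2, and 0 to 1 when each library was left out in turn. Between the siRNAs, 0 were called with all 5 libraries and 1 without siRNA596 replicate 2. The members' median log2 fold change minus that of all genes was 0.0425, between 0.0203 and 0.0561 when each library was left out, and 0.1305 with all 5 libraries, 0.1145 with the exon length offset, 0.0617 with the principal transcript length offset and 0.2001 for siRNA596 against NC. A replicate block in that last fit gave 0.2086, and the block changed no call. The deviations of same-numbered libraries correlated at r = 0.125, and the labels do not say that a number marks a shared culture or day. Signs turned for genes that no fit called. With all 5 libraries Gas5 was at 0.287, Fen1 at -0.1313, Orc3 at -0.01721, Orc6 at 0.3311, Mcm5 at 0.02296, Gins1 at 0.3482 and Chaf1a at -0.09866. For siRNA596 against NC, Gas5 was at 0.5637, Fen1 at -0.3239, Orc3 at -0.1232, Orc6 at 0.4929, Mcm5 at 0.06911, Gins1 at 0.5303 and Chaf1a at -0.2171, and with the replicate block at 0.3942, -0.4564, -0.1483, 0.3947, 0.05522, 0.3998 and -0.254 in the same order. With the exon length offset Gas5 was at 0.2472, Fen1 at -0.225, Orc6 at 0.1186, Mcm5 at 0.01001, Gins1 at 0.02338 and Pcna at -0.003355. With an offset for the principal transcript's length, which was chosen after seeing the data, Gas5 was at 0.2359, Fen1 at -0.1734, Orc3 at -0.07775, Mcm5 at 0.1084 and Pcna at -0.05703. Pcna was at -0.01837 with library size only and at -0.003614 with a minimum of 10 counts in every library. When each library was left out in turn, Pcna ranged from -0.03581 to 0.03975, Mcm5 from -0.2682 to 0.02109 and Orc2 from -0.3766 to 0.02718, and Mcm5 and Orc2 were positive without NC replicate 2. The cause of these changes was not tested. All fits that include the library labelled siRNA596 replicate 2 rest on a library whose Gas5 level went against its label. Arms of 1 or 2 libraries limit each test, and changes smaller than the intervals given could not be detected.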
